A study of Mus musculus with 2 samples.

Results

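Imprinted growth genes are expressed from 1 parental copy and set the pace of fetal and early postnatal growth. 10 of them (H19, Igf2, Dlk1, Meg3, Cdkn1c, Igf2r, Grb10, Peg3, Plagl1 and Mest) were chosen by symbol, with their values in these 2 libraries already known, and 8 of the 10 had a row among the 16190 genes of the count table. Dlk1 and Meg3 were not analysed here. RNA came from cells labelled as satellite cells, the stem cells of skeletal muscle, of the tibialis anterior. 1 library was from Cipc scko mice, whose sample title reads Cipc-/-, and 1 from Cipc flox/flox mice, whose sample title reads Cipc+/+. CIPC, the protein made from Cipc, is known to repress CLOCK and BMAL1, the circadian transcription factor pair. The labels give C57BL/6 as the strain of both groups, and do not give the Cre driver, the number of animals pooled, their age or their sex, or say what the abbreviation scko stands for. Since the controls carry floxed alleles and no Cre is named, an effect of Cre itself and the loss of Cipc cannot be told apart.

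Because each group has 1 library, the ratios below describe 2 libraries and not the genotypes, no p-value can be computed, and every 95% interval covers counting error only. Total counts were 16830168 in Cipc scko, against 16145870 in Cipc flox/flox. Cipc itself had 594 counts in Cipc scko, against 1907 in Cipc flox/flox, so its log2 ratio was -1.61 (-1.74 to -1.47), and the targeted gene was lower but still read in the library labelled scko. The libraries also differed in sex-linked genes: the Y-linked Ddx3y had 511 counts in Cipc scko, against 0 in Cipc flox/flox, and Xist had 4 in Cipc scko, against 3898 in Cipc flox/flox. Sex and genotype therefore cannot be told apart for any gene below.

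The label satellite cells was checked against marker genes, with levels in CPM (counts scaled to library size with TMM factors). The muscle stem cell factor Pax7 had 998 counts in Cipc scko, against 43 in Cipc flox/flox. The myoblast factor Myod1 had 19132 counts in Cipc scko, against 1916 in Cipc flox/flox. The differentiation factor Myog had 44286 counts in Cipc scko, against 53 in Cipc flox/flox. Of 14 satellite cell and myoblast markers past the filter (1 CPM or more in either library and 20 counts in all), 7 were at least 2-fold higher in Cipc scko, 2 (Cd34 and Megf10) at least 2-fold lower and 5 neither. All 9 measured markers of muscle fibres past the filter were higher, with a summed level of 14004 CPM in Cipc scko, against 92.2 CPM in Cipc flox/flox, and Myh1, Myh2, Myh7 and Pvalb, 4 of the 10 listed, were at 0 in Cipc flox/flox. By the same measure, calls over all genes came to 21.2% higher and 15.9% lower. Ckm, Mb, Myh1, Myh4, Myh7 and Pvalb passed the filter through Cipc scko alone, so they could not have been called lower. So both libraries held myogenic markers, and markers of differentiated muscle were far higher in Cipc scko. The part of this difference in the results on imprinted genes was not tested. In bulk RNA, fewer cells of a type and less RNA per cell cannot be told apart.

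In imprinting, DNA methylation set in the egg or sperm keeps 1 parental copy silent, and genes under this control lie in clusters that share a control region. On mouse distal chromosome 7, Igf2, a growth factor read from the paternal copy, and H19, a long noncoding RNA read from the maternal copy, share enhancers, and the protein CTCF bound to the unmethylated maternal control region keeps those enhancers from Igf2. In muscle, Igf2 is known as an autocrine factor of myoblast differentiation, and H19 and Igf2 are both known to be switched on as myoblasts differentiate.

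H19, Igf2 and Mest, 3 of the 8 measured genes, hold a microRNA gene within their bounds, and the mature sequences are shown because these hosts are among the genes with the clearest differences below. They are given 5′ to 3′ from RefSeq on GRCm38.p6, with the seed (bases 2 to 8), the part that pairs with target mRNAs, in capitals.
mmu-miR-675-5p: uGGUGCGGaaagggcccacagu
mmu-miR-675-3p: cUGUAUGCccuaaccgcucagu
mmu-miR-483-5p: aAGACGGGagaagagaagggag
mmu-miR-483-3p: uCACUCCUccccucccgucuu
mmu-miR-335-5p: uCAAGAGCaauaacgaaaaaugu
mmu-miR-335-3p: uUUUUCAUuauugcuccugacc
The miR-675 pair (chr7:142577112-142577133 and chr7:142577078-142577099, minus strand) lies in an exon of H19 in 3 of its 7 annotated transcripts. The miR-483 pair (chr7:142654968-142654989 and chr7:142654932-142654952, minus strand) lies in an intron of Igf2, and the miR-335 pair (chr6:30741314-30741336 and chr6:30741354-30741375, plus strand) in an intron of Mest. The 6 mature sequences have 6 distinct seeds, so none of them falls into a shared seed group with another. The microRNAs were not measured here, and a host gene's count gives no level for them.

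RefSeq promoters, from 250 bases before to 50 after a start site on GRCm38.p6, were found for 6 of the 8 genes, 12 promoters in all, of which Igf2 has 4. They were searched on both strands for 3 motifs: CACGTG, the E-box bound by CLOCK and BMAL1, the pair that CIPC represses, CAGCTG, an E-box bound by myogenic factors, and CATTCC with its reverse complement GGAATG, the element of TEAD factors. 1 promoter with each kind of match, and a second with CACGTG, are printed on the gene's own strand with the matches in capitals.
Plagl1 promoter, chr10:13090582-13090881, plus strand: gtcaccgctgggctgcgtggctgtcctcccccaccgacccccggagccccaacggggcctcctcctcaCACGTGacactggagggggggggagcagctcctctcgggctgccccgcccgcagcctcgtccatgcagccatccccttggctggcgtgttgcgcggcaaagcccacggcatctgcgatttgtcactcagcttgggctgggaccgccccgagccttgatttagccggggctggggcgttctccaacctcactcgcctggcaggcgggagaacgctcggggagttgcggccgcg
Igf2r promoter, chr17:12769657-12769956, minus strand: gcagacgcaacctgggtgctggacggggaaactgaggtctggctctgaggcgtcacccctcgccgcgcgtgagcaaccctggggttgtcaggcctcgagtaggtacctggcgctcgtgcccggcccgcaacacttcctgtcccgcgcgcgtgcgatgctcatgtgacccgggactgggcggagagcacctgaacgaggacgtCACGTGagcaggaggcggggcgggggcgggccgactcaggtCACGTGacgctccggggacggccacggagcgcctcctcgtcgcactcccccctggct
Mest promoter, chr6:30733256-30733555, plus strand: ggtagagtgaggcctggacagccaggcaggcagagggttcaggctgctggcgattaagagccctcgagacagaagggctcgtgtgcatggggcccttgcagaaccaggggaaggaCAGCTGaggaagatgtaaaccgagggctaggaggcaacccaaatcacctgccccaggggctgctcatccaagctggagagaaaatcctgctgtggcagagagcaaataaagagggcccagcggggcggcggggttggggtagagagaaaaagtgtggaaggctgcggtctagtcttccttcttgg
Igf2 promoter, chr7:142657447-142657746, minus strand: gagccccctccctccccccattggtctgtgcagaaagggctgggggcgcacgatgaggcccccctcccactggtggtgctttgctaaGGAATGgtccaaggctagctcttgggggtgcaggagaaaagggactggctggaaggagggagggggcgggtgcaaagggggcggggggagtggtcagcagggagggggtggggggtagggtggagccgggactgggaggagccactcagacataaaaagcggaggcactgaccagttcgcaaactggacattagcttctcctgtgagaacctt
CACGTG was found in 2 of the 12 promoters: at base -182 from the start in Plagl1, and at bases -48 and -7 in Igf2r. It occurs in 7.15% of the 32851 RefSeq promoters of this length. CAGCTG was found in 1, at base -135 of the Mest promoter shown, against 16.3% of all promoters. CATTCC was found in 4, namely 3 of the Igf2 promoters and that of Peg3, against 14.7% of all promoters. No matches overlapped one another, and a match is a string of letters, not a measured binding site. The promoters also differed in CG dinucleotides, the bases that imprinting methylates, where the median of all promoters was 7. The promoter of Igf2r held 34, the 2 of Grb10 held 9 and 45, that of Plagl1 26, that of Peg3 13, the 3 of Mest 8, 17 and 17, and the 4 of Igf2 7, 24, 14 and 2.

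Of the 8 measured imprinted growth genes, 7 were at least 2-fold higher in Cipc scko and 1, Peg3, was neither higher nor lower by that measure. Across all 12874 genes past the filter, 21.2% were at least 2-fold higher, 15.9% at least 2-fold lower and 37.2% either. The genes were chosen with this difference in view, so nothing is read from the count against that background. All 8 passed the filter on low counts, and 3 of the 4 read from the paternal copy and all 4 read from the maternal copy were higher, with median log2 ratios of 4.33 for the paternal and 4.51 for the maternal genes when genes at 0 counts are set at their lower bound. The same median over all 12874 genes was 0.01. Igf2, Cdkn1c, Plagl1 and Grb10 were below 1 CPM in Cipc flox/flox and passed the filter through Cipc scko alone. Since the genes were also chosen with their values known, nothing is read from their medians against that of all genes either.

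**Figure D1:**
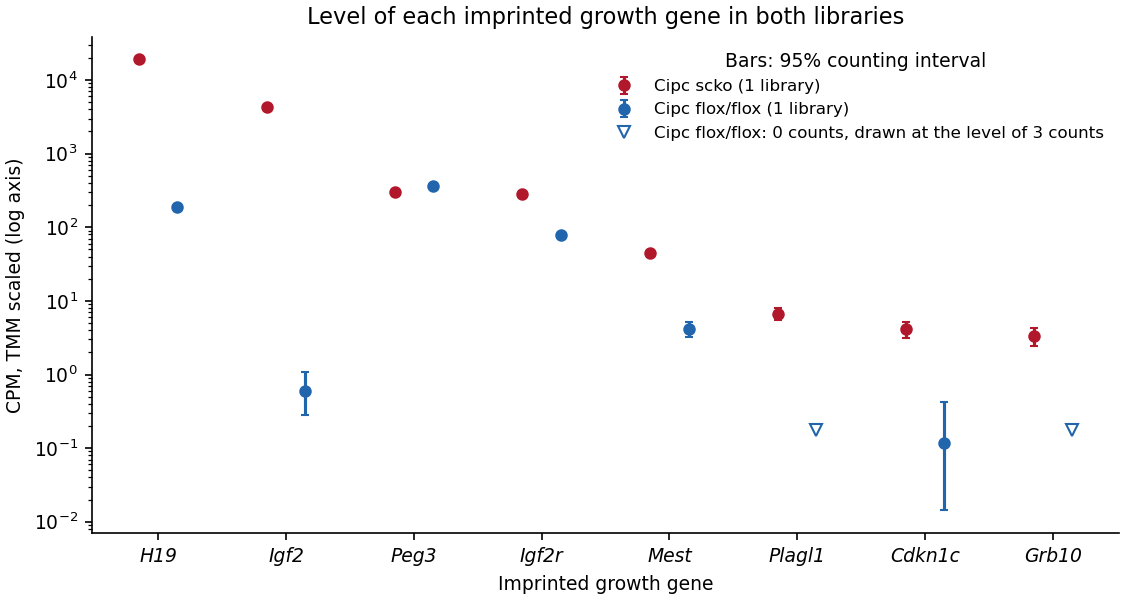
Level of each measured imprinted growth gene in CPM scaled by TMM, on a log axis, in the Cipc scko library (red) and the Cipc flox/flox library (blue). Points are single libraries, bars are 95% counting intervals, and open triangles mark 0 counts, drawn at the level of 3 counts. The Cipc scko point is the higher one for every gene but Peg3.

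The ligand of the group, Igf2 (ENSMUSG00000048583, GRCm38 chr7:142650766-142666816, minus strand), which acts through the IGF1 and insulin receptors, had 69297 counts in Cipc scko, against 10 in Cipc flox/flox. This was 4316 CPM in Cipc scko, against 0.591 CPM in Cipc flox/flox, with a log2 ratio of 12.76 (11.96 to 13.90), which is 6949-fold (3972 to 15236). The growth factor gene thus took 0.412% of all counts in Cipc scko and stood near the counting limit in Cipc flox/flox. By FPKM, a level per transcript length, it ranked 131 in Cipc scko, against 13749 in Cipc flox/flox. 14 of the 12874 genes that passed the filter (0.109%) reached a ratio as high. Its exons share 3596 of 5723 bases, or 62.8%, with those of the annotated gene Gm49394 on the same strand, which was not analysed here, and reads in that stretch could be counted for either gene.

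H19 (ENSMUSG00000000031, chr7:142575529-142578143, minus strand), the noncoding RNA downstream of Igf2, had 305903 counts in Cipc scko, against 3150 in Cipc flox/flox. It was the most counted of all genes in Cipc scko, where it took 1.82% of the library (exact binomial 95% interval 1.81 to 1.82), and ranked 982 in Cipc flox/flox, where it took 0.0195% (0.0188 to 0.0202). The levels were 19054 CPM in Cipc scko, against 186 CPM in Cipc flox/flox, and the log2 ratio was 6.68 (6.63 to 6.73), or 102-fold (98.9 to 106). Unlike Igf2, H19 was therefore well counted in both libraries. A ratio as high was found for 396 genes (3.08%).

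Igf2r (ENSMUSG00000023830, chr17:12682406-12769664, minus strand) encodes the receptor that takes IGF2 up for breakdown in lysosomes and is read from the maternal copy in the mouse. It had 4591 counts in Cipc scko, against 1326 in Cipc flox/flox, at 286 CPM in Cipc scko, against 78.3 CPM in Cipc flox/flox. The log2 ratio was 1.87 (1.78 to 1.96), or 3.65-fold (3.43 to 3.88), the smallest among the 7 higher genes. 1727 genes (13.4%) had a ratio as high. Airn, the noncoding RNA known to silence the paternal Igf2r copy, runs through Igf2r on the opposite strand without sharing exon bases, and had 61 counts in Cipc scko, against 7 in Cipc flox/flox, with a log2 ratio of 3.11 (2.07 to 4.57).

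Grb10 (ENSMUSG00000020176, chr11:11930508-12038683, minus strand) encodes an adaptor that binds the insulin and IGF1 receptors and restrains growth. It had 53 counts in Cipc scko, against 0 in Cipc flox/flox. At 3.30 CPM in Cipc scko it was at least 18.6-fold higher, where the bound sets Cipc flox/flox at a floor of 3 counts. Both libraries were thus low for this gene, and a log2 ratio fitted to a count of 0 would depend on the prior count. Cdkn1c (ENSMUSG00000037664, chr7:143458339-143461050, minus strand), which encodes the cyclin-dependent kinase inhibitor p57 and is known to act in the cell cycle exit of myoblasts, had 66 counts in Cipc scko, against 2 in Cipc flox/flox. Its levels were 4.11 CPM in Cipc scko, against 0.118 CPM in Cipc flox/flox, with a log2 ratio of 4.80 and a wide interval of 3.21 to 8.20. The exons of Cdkn1c share 625 of 2039 bases, or 30.7%, with Gm44732 on the opposite strand, which was not analysed here. Whether the counting used strand is not given in the sources used here.

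The zinc-finger gene Plagl1 (ENSMUSG00000019817, chr10:13060504-13131694, plus strand) encodes a transcription factor known to regulate other genes of the imprinted network, Igf2 and H19 among them. It had 108 counts in Cipc scko, against 0 in Cipc flox/flox, so at 6.73 CPM in Cipc scko it was at least 38.0-fold higher. Peg3 (ENSMUSG00000002265, chr7:6703892-6730431, minus strand), a second zinc-finger gene that is known to mark muscle stem cells, was the exception. It had 4842 counts in Cipc scko, against 6135 in Cipc flox/flox, at 302 CPM in Cipc scko, against 362 CPM in Cipc flox/flox. The log2 ratio of -0.27 (-0.32 to -0.21) excluded equality by counting error alone and lay within the 2-fold limit, on the lower side. Peg3 was thus the one measured gene of the group with a high level in both libraries and no 2-fold difference. Mest (ENSMUSG00000051855, chr6:30723547-30748465, plus strand), which encodes an enzyme-like protein of the alpha/beta hydrolase fold, had 714 counts in Cipc scko, against 70 in Cipc flox/flox. Its log2 ratio was 3.42 (3.07 to 3.80), or 10.7-fold (8.40 to 14.0). Mest shares 912 of 3945 exon bases, or 23.1%, with Copg2 on the opposite strand, which had 1202 counts in Cipc scko, against 604 in Cipc flox/flox, with a log2 ratio of 1.07 that scaling by library totals put within 2-fold at 0.93.

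Levels between genes were compared per transcript length, in the deposited FPKM (fragments per kilobase of transcript, scaled to depth). In Cipc scko, H19 stood at 3195 FPKM and Igf2 at 313 FPKM, followed by Igf2r at 28.0, Peg3 at 18.0, Mest at 5.99, Cdkn1c at 1.39, Plagl1 at 0.397 and Grb10 at 0.312 FPKM. Neighbours in this order differed beyond their counting intervals except Plagl1 and Grb10, whose intervals of 0.326 to 0.479 and 0.234 to 0.408 FPKM overlapped. In Cipc flox/flox, H19 stood at 34.3 FPKM, Peg3 at 23.8, Igf2r at 8.43, Mest at 0.613, Igf2 at 0.0471 and Cdkn1c at 0.0440 FPKM, and Plagl1 and Grb10 were listed at 0. Here the intervals of Igf2 and Cdkn1c overlapped. H19 led in both libraries, whereas Igf2 came next after H19 in Cipc scko and stood near the low end of the order in Cipc flox/flox. The level of H19 over that of Igf2 was 10.2 in Cipc scko, against 728 in Cipc flox/flox. The latter is known only roughly, since Igf2 had 10 counts in Cipc flox/flox, with an interval of 0.0226 to 0.0866 FPKM.

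**Figure D2:**
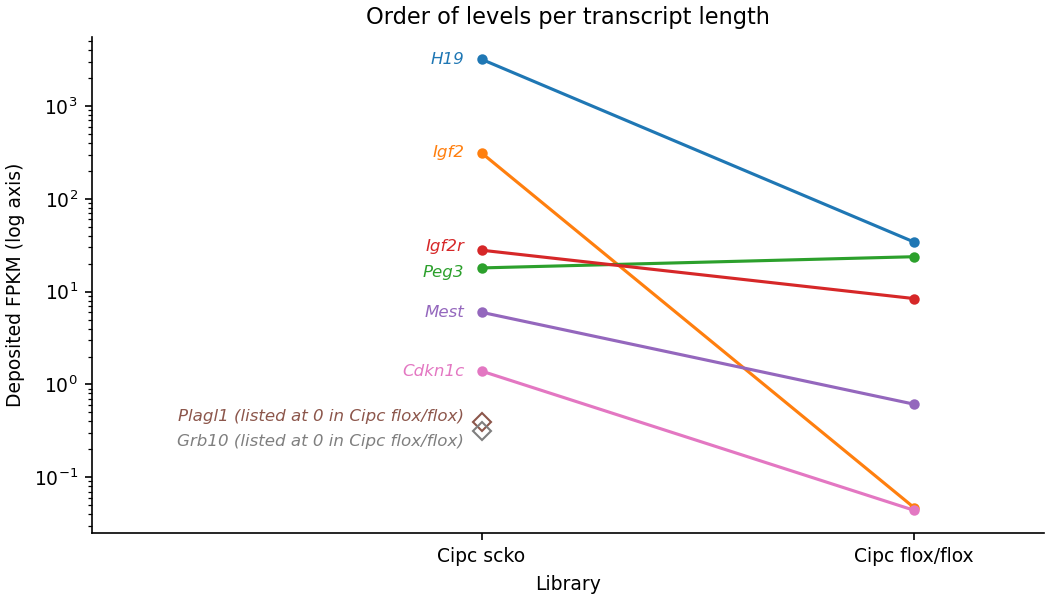
Deposited FPKM of the 8 measured imprinted growth genes on a log axis, in the Cipc scko library (left) and the Cipc flox/flox library (right), with a line joining the 2 values of a gene. Open diamonds mark Plagl1 and Grb10, which are listed at 0 in Cipc flox/flox. H19 is highest in both, and the line of Igf2 crosses those of Igf2r, Peg3 and Mest.

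The genes whose levels in both libraries lay nearest to those of H19 and Igf2, by distance in log2(CPM + 0.5) over the 2 libraries, are named here by that distance. Nearest to H19 was Acta2, smooth muscle actin, at a distance of 1.59, with 199588 counts in Cipc scko, against 8686 in Cipc flox/flox. H2-D1, a class I histocompatibility gene, followed at 2.72 with 63709 counts in Cipc scko, against 1101 in Cipc flox/flox. The matrix proteoglycan gene Bgn was the third, at 3.26, with 32467 counts in Cipc scko, against 4089 in Cipc flox/flox. These distances are taken on CPM and are not per transcript length. Nearest to Igf2 was the atrial and embryonic light chain gene Myl4 at 1.19, with 40271 counts in Cipc scko, against 26 in Cipc flox/flox. Cardiac actin Actc1 followed at 1.24, with 33931 counts in Cipc scko, against 3 in Cipc flox/flox. The slow myosin gene Myh7 was the third, at 1.73, with 27995 counts in Cipc scko, against 0 in Cipc flox/flox. With 2 libraries this likeness rests on 2 values a gene.

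The lower ends of H19 and Igf2 on chromosome 7 lie 75.2 kb apart, and the nearest measured genes on both sides were also higher in Cipc scko. On the H19 side, the fast skeletal troponin gene Tnnt3, on the far side of Mrpl23, had 10722 counts in Cipc scko, against 72 in Cipc flox/flox, with a log2 ratio of 7.28 (6.96 to 7.65). The mitochondrial ribosomal gene Mrpl23 had 525 counts in Cipc scko, against 262 in Cipc flox/flox (log2 ratio 1.08, and within 2-fold at 0.94 when scaled by library totals). The noncoding Nctc1, between Mrpl23 and H19, had 76 counts in Cipc scko, against 0 in Cipc flox/flox, which is at least 26.7-fold higher. Nctc1 is known as a muscle transcript of the same enhancer region. Igf2os, antisense to Igf2, had 209 counts in Cipc scko, against 0 in Cipc flox/flox, at least 73.4-fold higher. It shares 98 exon bases with Igf2, so without strand some of its reads could come from Igf2. The next gene beyond, Tspan32, was lower, with 2 counts in Cipc scko, against 79 in Cipc flox/flox (log2 ratio -4.92), and R74862 was neither, with 36 counts in Cipc scko, against 48 in Cipc flox/flox.

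Within 1000 kb of H19, the 20 other genes past the filter held 10 that were higher and 1 that was lower, and their median log2 ratio was 0.98. These 10 include Igf2 and Cdkn1c, which were chosen with their values known. Of the 10, Igf2, Cdkn1c, Nctc1, Igf2os and Syt8 passed the filter through Cipc scko alone, so they could not have been called lower. The lower gene, Tspan32, passed it through Cipc flox/flox alone. For comparison, the share called higher was 21.2% over all genes and 29.4% over those of chromosome 7. The share called lower was 15.9% over all genes. The corresponding median was 0.62 around Cdkn1c over 21 genes and 0.28 around Grb10 over 4. The span around Cdkn1c overlaps that around H19, and its 7 higher genes are H19 itself and genes already counted around H19. The median lay below 0 around Igf2r (-0.15, 11 genes), Mest (-0.24, 13 genes), Peg3 (-0.08, 11 genes) and Plagl1 (-0.34, 10 genes). Over the nearest neighbours alone (3 genes of the table a side, those past the filter), the median was 0.60 around Igf2r and 0.34 around Plagl1, and -0.26 around Mest and -0.35 around Peg3, so around Igf2r and Plagl1 the sign depends on the span taken. By chromosome, the median of all genes past the filter was 0.40 on chromosome 7 (971 genes), -0.05 on chromosome 6 (621), -0.34 on chromosome 10 (623), -0.12 on chromosome 11 (1063) and -0.03 on chromosome 17 (639). H19, Igf2, Cdkn1c and Peg3 lie on chromosome 7, which has the highest of these 5 medians, and Peg3 ran against it.

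**Figure D3:**
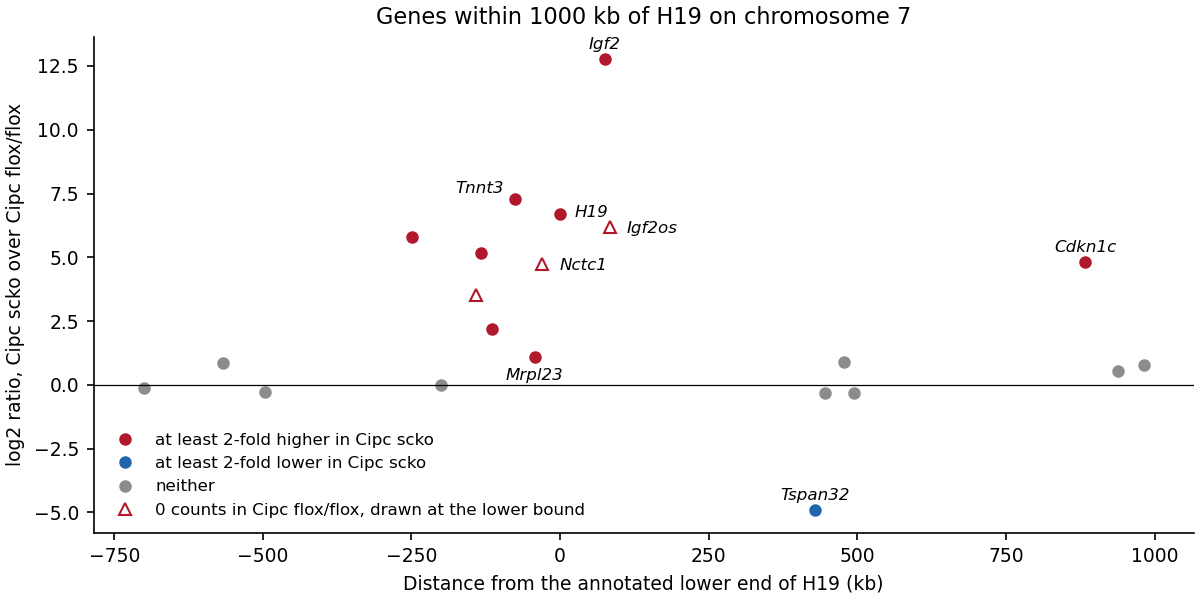
log2 ratio, as Cipc scko over Cipc flox/flox (vertical axis), for genes past the filter within 1000 kb of H19 on chromosome 7, by distance in kb from the lower end of H19 (horizontal axis). Red points are at least 2-fold higher in Cipc scko, the blue point at least 2-fold lower and grey points neither; open triangles are genes at 0 counts in Cipc flox/flox, at their lower bound. Apart from Cdkn1c, the higher genes lie within 250 kb of H19, and Tspan32 is the one lower gene.

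Among the genes next to the other imprinted growth genes, differences ran in both directions. Beside Grb10, Ddc, which encodes the enzyme that makes dopamine and serotonin, had 358 counts in Cipc scko, against 4 in Cipc flox/flox (log2 ratio 6.39, 5.19 to 8.44). Cobl, an actin nucleator gene on its other side, had 1364 counts in Cipc scko, against 523 in Cipc flox/flox (1.46). Both are imprinted neighbours of Grb10, while Ikzf1, a transcription factor gene of lymphoid cells, had 2 counts in Cipc scko, against 50 in Cipc flox/flox (-4.27). Beside Peg3, the maternally read zinc-finger gene Zim1 had 896 counts in Cipc scko, against 174 in Cipc flox/flox (2.44, 2.20 to 2.68). Usp29, a paternally read deubiquitinase gene on the other side of Peg3, had 18 counts in Cipc scko, against 50 in Cipc flox/flox (-1.37). These 3 genes of the Peg3 domain therefore differed in 3 ways: Zim1 higher, Usp29 lower and Peg3 within 2-fold. Beside Plagl1, Phactr2, a phosphatase and actin regulator gene, had 265 counts in Cipc scko, against 0 in Cipc flox/flox, at least 93.1-fold higher. Around Cdkn1c, none of the neighbours past the filter (Tssc4, Nap1l4 and Cars) differed by 2-fold. Over all 31 distinct neighbours past the filter that are not themselves in the group, 11 were higher and 4 lower, with a median of 0.46, where 21.2% of all genes were higher and 15.9% lower. The 11 include Tnnt3, Mrpl23, Nctc1 and Igf2os, the neighbours of H19 and Igf2 given above. Of the 11, Nctc1, Igf2os, Phactr2, Airn and Ddc passed the filter through Cipc scko alone, so they could not have been called lower. Of the 4 lower, Tspan32, Ikzf1 and 2210408F21Rik passed it through Cipc flox/flox alone, so they could not have been called higher. The 31 also hold Sec61g and the higher Akt2-ps, whose lower ends lie 4570 and 4584 kb from that of Grb10.

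Other imprinted genes gave a mixed picture. Of 73 listed, 49 had a row and 39 passed the filter: 12 were at least 2-fold higher in Cipc scko, 4 at least 2-fold lower and 23 neither, with a median log2 ratio of 0.47 against 0.01 over all genes, of which 21.2% were higher and 15.9% lower. By the parental copy listed for each gene, the split was 6 higher, 2 lower and 8 neither for 16 paternal genes. It was 6 higher, 2 lower and 15 neither for 23 maternal genes. Of these, Ndn, Peg12, Mkrn3, Airn, Zdbf2, Ppp1r9a and Ddc passed the filter through Cipc scko alone, so they could not have been called lower. Dcn and Tspan32 passed it through Cipc flox/flox alone, so they could not have been called higher. The maternal list holds Ddc and Sfmbt2, both higher, whose place in it is not certain, so the split by parent is approximate. Of the paternally read genes, Ndn, which encodes the growth-restraining protein necdin, had 119 counts in Cipc scko, against 8 in Cipc flox/flox (3.89, 2.95 to 5.22). Peg12, a FRAT family gene of the Wnt pathway, had 105 counts in Cipc scko, against 6 in Cipc flox/flox (4.09, 3.04 to 5.68). Peg10, derived from a retrotransposon, had 1022 counts in Cipc scko, against 522 in Cipc flox/flox (1.04, and 0.91 when scaled by library totals). Impact, a regulator of the translational stress kinase GCN2, was lower, with 712 counts in Cipc scko, against 1663 in Cipc flox/flox (-1.15). The paternally read genes thus lay on both sides of equality. Of the maternally read genes, Ppp1r9a, which encodes the actin-binding protein neurabin, had 86 counts in Cipc scko, against 0 in Cipc flox/flox, at least 30.2-fold higher. Dcn, the matrix proteoglycan decorin, had 1 count in Cipc scko, against 142 in Cipc flox/flox (-6.51, with an interval of -12.39 to -4.57). Dcn is also a marker of fibroblasts, and the defining fibro-adipogenic marker Pdgfra had 11 counts in Cipc scko, against 147 in Cipc flox/flox, though of 5 such markers past the filter 2 were higher, 1 lower and 2 neither. Their part in the Dcn difference was not tested. Gnas, which encodes a G protein subunit, had 16161 counts in Cipc scko, against 10238 in Cipc flox/flox, a ratio within 2-fold (0.74).

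**Figure D4:**
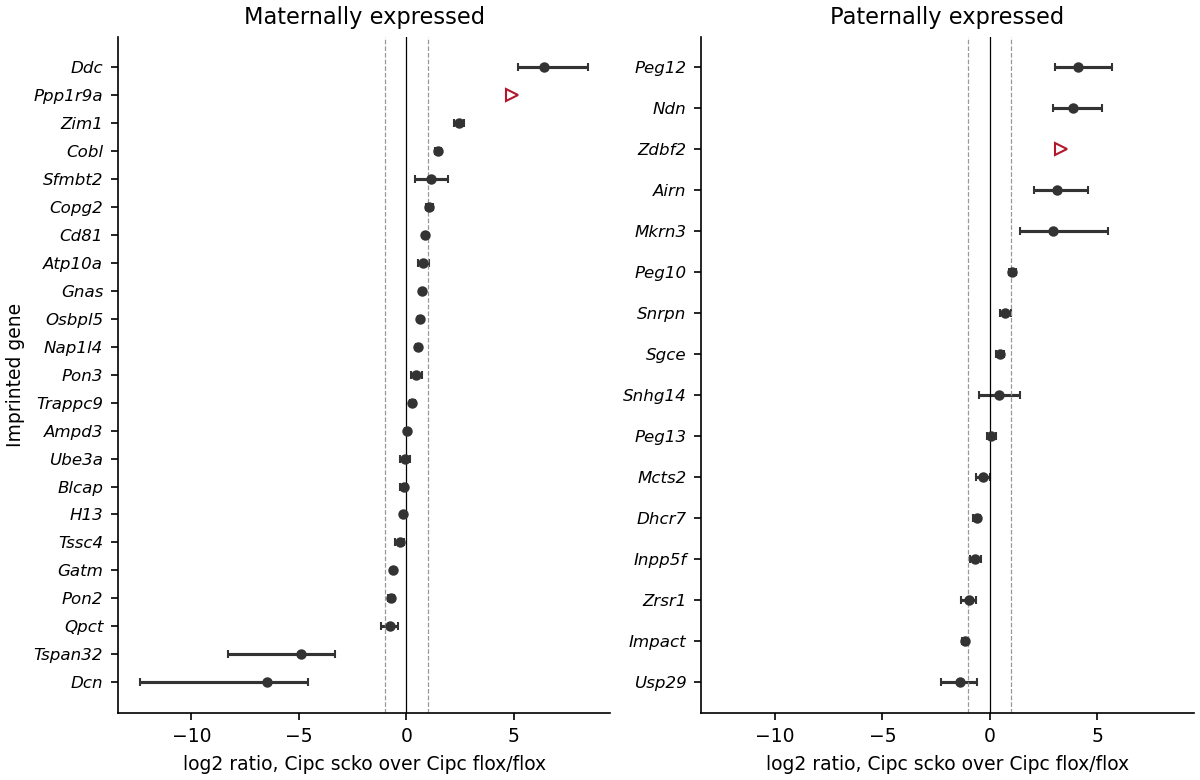
log2 ratio, as Cipc scko over Cipc flox/flox (horizontal axes), for the other imprinted genes past the filter, genes listed as maternally read at left and as paternally read at right. The place of Ddc and Sfmbt2 at left is not certain. Points have 95% counting intervals, open triangles are genes at 0 counts in Cipc flox/flox at their lower bound, and dashed lines mark 2-fold. Of these 39 genes, 23 lie between the dashed lines or too near them to be called, 12 above and 4 below.

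Genes that set or keep imprints had 19 members in the table, all past the filter. Of these 2 were higher, 1 lower and 16 neither, where 37.2% of all genes were higher or lower, and their median was -0.05. Zfp57, a zinc-finger protein that protects imprints in early embryos, had 249 counts in Cipc scko, against 77 in Cipc flox/flox (1.76, 1.40 to 2.16), and was thus low in both libraries. The de novo DNA methyltransferase gene Dnmt3a had 411 counts in Cipc scko, against 199 in Cipc flox/flox (1.12, 0.87 to 1.37, and 0.98 when scaled by library totals). Uhrf1, which brings the maintenance methyltransferase to newly made DNA, had 1235 counts in Cipc scko, against 2797 in Cipc flox/flox (-1.10, -1.20 to -1.01). Ctcf, the insulator protein of the H19 and Igf2 domain, had 729 counts in Cipc scko, against 1246 in Cipc flox/flox (-0.70) and was within 2-fold, as were Trim28 and Dnmt1. DNA methylation and allele-specific reads were not measured, so the counts do not show which parental copy was read.

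Partners of IGF2 were found on both sides of equality, as were genes in general. Of 22 listed, 18 had a row and 16 passed the filter, 3 higher, 5 lower and 8 neither, where 21.2% of all genes were higher and 15.9% lower. The median was 0.20, and -0.066 with a CPM filter of 5. The signalling receptor gene Igf1r had 685 counts in Cipc scko, against 382 in Cipc flox/flox (0.92). The insulin receptor gene Insr had 817 counts in Cipc scko, against 683 in Cipc flox/flox (0.33), and both were within 2-fold. Irs1, a docking protein gene behind both receptors, was lower, with 231 counts in Cipc scko, against 2467 in Cipc flox/flox (-3.34, -3.54 to -3.15). Irs2, another docking protein gene, had 144 counts in Cipc scko, against 87 in Cipc flox/flox (0.80, 0.41 to 1.20) and was not called. The other IGF ligand gene, Igf1, had 5 counts in Cipc scko, against 1 in Cipc flox/flox and did not pass the filter. The signalling receptors thus stayed within 2-fold, though the interval of Igf1r reached past it. The ligand gene Igf2 was higher, and of the docking protein genes Irs1 was lower and Irs2 was not.

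The binding proteins, which hold IGFs outside the cell, split. Igfbp3 had 1713 counts in Cipc scko, against 61 in Cipc flox/flox (4.88, 4.52 to 5.28). Igfbp7, a relative with weak IGF binding, had 7368 counts in Cipc scko, against 1372 in Cipc flox/flox (2.50). Igfbp6, which prefers IGF2 as its ligand, had 12 counts in Cipc scko, against 6332 in Cipc flox/flox (-8.91, -9.92 to -8.16). Igfbp2 had 489 counts in Cipc scko, against 19082 in Cipc flox/flox (-5.21, -5.34 to -5.08). Igfbp6 thus ran opposite to Igf2, as does any gene called lower in these 2 libraries, and a link between them was not tested. It passed the filter through Cipc flox/flox alone. Igfbp5 was within 2-fold, with 46052 counts in Cipc scko, against 76533 in Cipc flox/flox (-0.66). Hmga2, a chromatin protein gene of growing cells known to activate the RNA-binding protein gene Igf2bp2, had 357 counts in Cipc scko, against 5880 in Cipc flox/flox (-3.96), and Igf2bp2 itself was within 2-fold. Igf2bp3, of the same RNA-binding family, had 9 counts in Cipc scko, against 99 in Cipc flox/flox (-3.31).

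**Figure D5:**
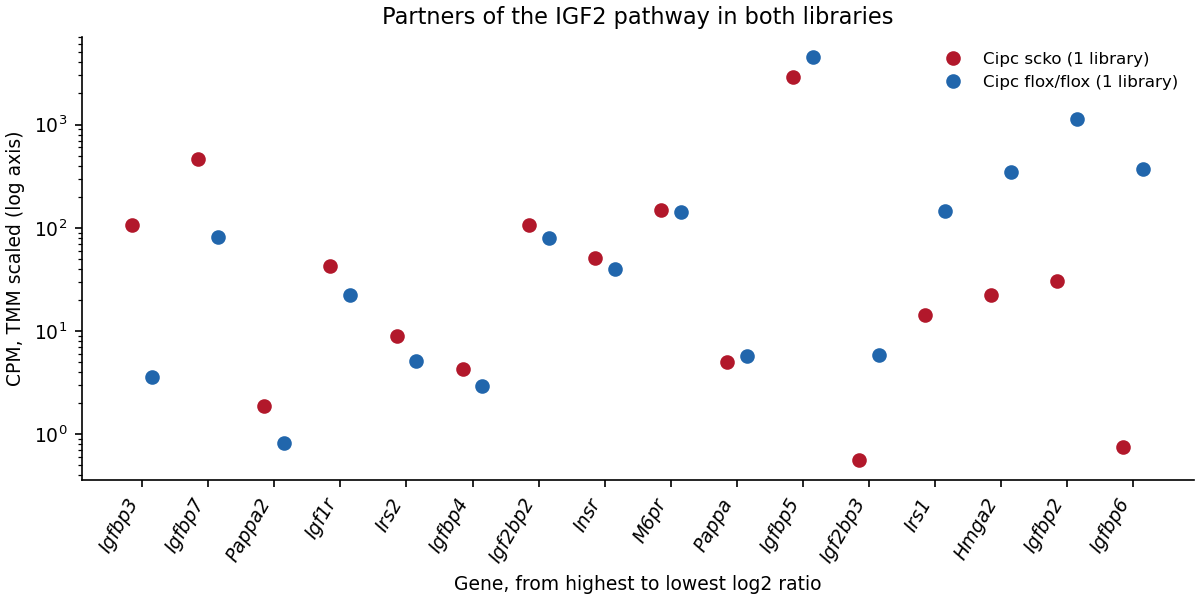
CPM scaled by TMM, on a log axis, of the 16 partners of the IGF2 pathway past the filter, with the Cipc scko library in red left of the Cipc flox/flox library in blue, ordered from the highest to the lowest log2 ratio. Igfbp3 and Igfbp7 stand at the high end and Igfbp2 and Igfbp6 at the low end, with the receptors Igf1r and Insr between them.

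Dlk1 is a noncanonical member of the Notch ligand family, and the Notch genes are given as its pathway. Of 11, all with a row, 8 passed the filter, 4 higher, 0 lower and 4 neither, with a median of 0.78 that was 1.44 with no filter and 1.85 with a CPM filter of 5. The ligand gene Dll1 had 795 counts in Cipc scko, against 31 in Cipc flox/flox (4.73), and Jag1 had 309 counts in Cipc scko, against 62 in Cipc flox/flox (2.38). The receptor gene Notch1 had 2346 counts in Cipc scko, against 589 in Cipc flox/flox (2.07), and Notch3 had 4210 counts in Cipc scko, against 1228 in Cipc flox/flox (1.85). The 4 called neither were all below equality: Notch2 (-0.29), the ligand gene Jag2 (-0.89), Dlk2 (-0.76) and Adam17 (-0.62). Jag2 was at -1.03 when scaled by library totals. The list was thus split, and its median fell in the gap between Notch2 and Notch3. Relatives of Cdkn1c, Grb10, Peg3 and Plagl1 that are not imprinted also included higher genes, 4 of 8 with 0 lower and a median of 1.16, which was 0.72 with a CPM filter of 5. Cdkn1a, which encodes the inhibitor p21, had 30695 counts in Cipc scko, against 6618 in Cipc flox/flox (2.29), while Cdkn1b, which encodes p27, was within 2-fold, with 937 counts in Cipc scko, against 834 in Cipc flox/flox. Grb14, the adaptor gene nearest in kind to Grb10, had 874 counts in Cipc scko, against 93 in Cipc flox/flox (3.30). Plagl2, a relative of Plagl1, had 378 counts in Cipc scko, against 120 in Cipc flox/flox (1.73). The genes of this list within 2-fold were Cdkn1b, Siah1a, Siah1b and Fbxl8, the last 3 with log2 ratios of 0.72, -0.53 and 0.44. Both lists were drawn up with earlier results of these libraries known, and over all genes 21.2% were higher and 15.9% lower.

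Markers of other cells that a muscle preparation can hold moved in both directions. Over all genes past the filter, 21.2% were at least 2-fold higher, 15.9% at least 2-fold lower and 37.2% either. For 5 smooth muscle and pericyte markers, 4 of them higher and 1 lower, summed levels were 12872 CPM in Cipc scko, against 627 CPM in Cipc flox/flox, most of it Acta2. The lower one, Cspg4, had 7 counts in Cipc scko, against 491 in Cipc flox/flox (log2 ratio -5.96). The 5 endothelial markers summed to 8.22 CPM in Cipc scko, against 1.18 CPM in Cipc flox/flox. Most of the Cipc scko sum was Kdr, the one endothelial marker past the filter, with 112 counts in Cipc scko, against 2 in Cipc flox/flox, while Tek and Esam were at 0 in Cipc scko and Pecam1 was at 0 in Cipc flox/flox. The 5 macrophage and leukocyte markers summed to 6.48 CPM in Cipc scko, against 47.5 CPM in Cipc flox/flox, and of 3 past the filter 1 was higher and 2 were lower. Csf1r was higher, with 37 counts in Cipc scko, against 9 in Cipc flox/flox (2.05). Cd68 was lower, with 30 counts in Cipc scko, against 425 in Cipc flox/flox (-3.73). Cd14 was also lower, with 23 counts in Cipc scko, against 356 in Cipc flox/flox (-3.85). The 4 Schwann cell markers summed to 1.56 CPM in Cipc scko, against 20.8 CPM in Cipc flox/flox, most of it Ngfr, and the 2 past the filter were lower. The part of these markers in the levels of the imprinted growth genes was not tested.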

How the data were processed

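RNA from 1 Cipc scko and 1 Cipc flox/flox library was sequenced on an Illumina system, per the labels. The authors deposited raw counts of both libraries in a table keyed by Ensembl identifiers, and an FPKM table for each library, per the file headers. Tools listed in the submitters' processing notes are CASAVA, HISAT2 (2.0.4) and StringTie (1.3.0), with GRCm38 as build and no role for any of them. Neither the annotation nor the way of counting, strand included, is given in the sources used here. FPKM ratios over CPM ratios lay between 0.9996 and 1.0002 in 13719 genes, so the deposited FPKM are rescaled counts and no second measurement.

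Of the 16190 genes, 16122 had a symbol, and positions came from GENCODE on GRCm38. Counts were scaled by TMM (edgeR 4.0.16, R 4.3.3) to CPM, and log2 ratios used a prior count of 0.5. The filter kept genes that reached a CPM of 1 in either library and 20 counts in all. A gene below 1 CPM in 1 library entered through the other alone, so in every list its call could go only towards that other library. A gene was called higher or lower past 2-fold with a 95% Clopper-Pearson interval of its count split that excluded equality. Without molecular identifiers, reads are not independent molecules, so intervals hold counting error alone. A gene at 0 was bounded by a floor of 3 counts (0.187 CPM for Cipc scko, 0.177 CPM for Cipc flox/flox).

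The members and lists were chosen with earlier results of these data known. The text names all members, up to 4 highest and 4 lowest called genes of a list with a CPM of at least 5, 3 neighbours a side, and 3 genes nearest in level to H19 and Igf2. Gnas, Igf1, Igf1r, Insr, Igfbp5, Igf2bp2, Igf2bp3, Ctcf, Trim28, Dnmt1, Notch2, Jag2, Cdkn1b, Siah1a, Siah1b, Fbxl8 and the named markers were added after their values were seen. So were Mkrn3, Zdbf2, Syt8, Irs2, Dlk2 and Adam17. Shared sequence was sought with BLAST+ 2.17.0, and the call rule was tested on simulated data. No p-value was computed, since edgeR's test cannot be fitted to 1 library per group. Alternatives were other scalings (totals, DESeq2 1.42.0 size factors, upper quartile), filters, prior counts and fold limits, and FPKM with a pseudocount.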

Additional observations from a re-analysis of the deposited data

How the results depend on the processing

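Of 48 alternative values of member ratios, 29 moved by less than their counting interval, 19 moved further and 0 reversed sign. With FPKM and a pseudocount of 0.1 the log2 ratio was 11.06 for Igf2, 6.54 for H19, 1.72 for Igf2r, 2.31 for Plagl1, 2.04 for Grb10 and -0.40 for Peg3. A pseudocount of 1 gave 8.23 for Igf2, 6.50 for H19, 2.12 for Mest, 1.62 for Igf2r, 1.20 for Cdkn1c and -0.38 for Peg3, while Plagl1 (0.48) and Grb10 (0.39) were no longer called, since a pseudocount shrinks the ratio of low values. Scaling by totals gave 6.54 for H19, 1.73 for Igf2r and -0.40 for Peg3, with the median of all genes at -0.13 instead of 0.01. A prior count of 5 gave 4.54 for Plagl1 and 3.57 for Grb10. Peg3 lay between -0.40 and -0.22 throughout and was never called. Members called higher numbered 7, but 5 with FPKM and a pseudocount of 1, 5 with a CPM filter of 5, under which Cdkn1c and Grb10 do not enter, and 6 with a 4-fold limit, which Igf2r does not reach. Over all genes, 1479 were called higher with FPKM and a pseudocount of 1, and a 4-fold limit left 1608 higher and 860 lower, while a 1.5-fold limit gave 3318 lower, against 2732 higher and 2053 lower. The median of other imprinted genes was 0.05 (listed as paternally read) and 0.13 (listed as maternally read) with FPKM and a pseudocount of 1, and that of the list with Cdkn1a, Grb14 and Plagl2 0.39, against 0.45, 0.47 and 1.16. With scaling by totals the median was -0.18 for imprint maintenance and 0.07 for the IGF2 partners, against -0.05 and 0.20. The median of the IGF2 partners was -0.066 with a CPM filter of 5, against 0.20, as fewer genes entered. No paired analysis was possible because each group has 1 library, and for the same reason no library could be left out. Variation between animals was not measured, and the few counts of Cdkn1c, Igf2, Grb10 and Plagl1 in Cipc flox/flox limit how closely their ratios are known.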
